A study of Mus musculus with 24 samples.

Results

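Hair follicle stem cell genes are described here as 10 named genes, Lhx2, Sox9, Cd34, Lgr5, Nfatc1, Tbx1, Gli1, Gli2, Foxc1 and Postn. They were chosen by symbol, from knowledge of the stem cells of the hair follicle and with earlier results of these data known. Of these, 10 of 10 were found among the 17721 genes of the authors' deposited table. The 24 RNA-seq libraries of the series come from the back skin epidermis of 8-week-old male C57BL/6 mice in which Bmal1 (gene symbol Arntl) was knocked out by Cre recombinase expressed from the keratin 14 promoter (EpiKO mice). Sampling covered 6 zeitgeber times (ZT) spaced 4 h apart, with 4 animals each, ZT0 being lights on in a cycle of 12 h of light and 12 h of dark. Their clock was intact in other tissues, and the comparison was with wild-type (WT) epidermis, whose libraries are not samples of this series and whose genotype is not described further.

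The stem cells of the hair follicle sit in the bulge and in the hair germ beneath it, where they rest for most of the hair cycle and divide when a new hair begins to grow. LHX2, SOX9, NFATC1, TBX1 and FOXC1 are transcription factors that maintain these cells or hold them at rest, CD34 is the surface protein by which bulge cells are sorted in the mouse, and LGR5 is a receptor for R-spondins, secreted proteins that strengthen Wnt signals. GLI1 and GLI2 carry Hedgehog signals to the nucleus, and POSTN is a secreted matrix protein. Keratin 14 is made in the basal layer of the epidermis and in the outer root sheath of the follicle, bulge included, so a Cre under its promoter can act in these stem cells, which was not checked here.

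The table holds 1 fit per gene over all libraries and no value per library, so no level can be given sample by sample. For each gene it gives a mean level per genotype (log2, not divided by gene length), the weights of 2 models of the mean (equal or unequal), the weights of 5 models of the daily rhythm, and the fitted curve of the model with the largest weight. A gene is called here where a weight reached 0.5. Because nested models were weighed by an information criterion, the likelihood ratio between any 2 of them could be recovered from their weights, and from it a p-value adjusted over all 17721 genes, a standard error (SE) and the spread (SD) per library. A set of columns is marked WT, and the other, whose mark is not explained, was read as EpiKO, the only other side of the comparison. The authors' deposited table gave Arntl itself a rhythm in WT only (weight 0.882). It gave Arntl a mean of 9.65 in EpiKO against 9.50 in WT (log2), and since the exons that those reads cover are not known, this level is no check of the deletion.

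Mean levels of 7 of the 10 genes were lower in EpiKO, that of Postn was higher, and Cd34 and Nfatc1 were given equal means. Unequal means with a weight of at least 0.5 were common across the table, with 37.4% of genes lower and 32.7% higher in EpiKO. Having unequal means is therefore no mark of these genes, and 7 of the 8 that did were lower. The median difference of the 10 genes was -0.71 (log2, EpiKO minus WT), with Cd34 and Nfatc1 entered at 0. That of all genes was 0, the difference deposited for 5295 of them, and over genes with unequal means it was -0.14. By the recovered likelihood ratios, the same 7 genes were lower and Postn higher at an adjusted p below 0.05, beside 36.4% and 31.8% of all genes. In bulk epidermis, fewer cells of a type and less RNA per cell cannot be told apart, and genotype cannot be told apart from any difference in how both sets of libraries were made.

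Lgr5, the R-spondin receptor, had the largest estimated difference of the 8 genes with unequal means, with an interval that overlaps that of Gli1. The authors' deposited table put its mean at 9.48 in WT and 7.61 in EpiKO (log2), a 3.64-fold lower level. The difference was -1.87 ± 0.24 (log2, SE; adjusted p = 1.13e-14 from the recovered dryR likelihood ratio), and its 95% interval ran from -2.33 to -1.40. Among the 10093 genes whose level was at or above that of Cd34, the lowest of the 10 at 6.63, 3.04% had a more negative difference.

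Of the transcription factors, Sox9, which specifies the bulge, was at 10.4 in WT and 9.37 in EpiKO in the authors' deposited table (log2), 2.05-fold lower (adjusted p = 4.86e-11, dryR likelihood ratio). Tbx1 was at 7.75 and 6.89 in the authors' deposited table, a difference of -0.86 ± 0.27 (SE; adjusted p = 0.00221, dryR likelihood ratio). Lhx2 was at 8.76 and 7.99 in the authors' deposited table, a difference of -0.77 ± 0.24 (SE; adjusted p = 0.0019, dryR likelihood ratio). The intervals of Sox9, Tbx1 and Lhx2 overlap, so these values give no order of effect among them. Foxc1, which keeps bulge cells at rest, differed least of the 7, with 9.24 in WT and 8.81 in EpiKO in the authors' deposited table. That is a 1.35-fold lower level, with a 95% interval of the difference from -0.72 to -0.14 (log2; adjusted p = 0.00563, dryR likelihood ratio). Nfatc1, which restrains the division of bulge cells downstream of BMP signals, was given 1 mean of 10.2 for both genotypes in the authors' deposited table, with a weight of 0.426 for unequal means. Because an equal mean was deposited, the size and the direction of any difference of Nfatc1 are not known (adjusted p = 0.0979, dryR likelihood ratio).

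Both Hedgehog effectors were lower in EpiKO. Gli1, which is itself switched on by the pathway, was at 8.13 in WT and 7.11 in EpiKO in the authors' deposited table, 2.04-fold lower (adjusted p = 2.6e-05, dryR likelihood ratio). Gli2, the main activator of Hedgehog targets in the follicle, was at 7.67 and 7.03 in the authors' deposited table, 1.56-fold lower (adjusted p = 0.000129, dryR likelihood ratio). Their intervals, from -1.49 to -0.57 for Gli1 and from -0.96 to -0.33 for Gli2 (log2), overlap.

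Cd34 was given 1 mean of 6.63 for both genotypes in the authors' deposited table, with a weight of 0.412 for unequal means (adjusted p = 0.104, dryR likelihood ratio). Postn moved the other way from the 7 genes that were lower, from 10.2 in WT to 11.2 in EpiKO in the authors' deposited table. It was 1.98-fold higher, with a 95% interval of 1.54 to 2.55 (adjusted p = 2.31e-07, dryR likelihood ratio), and 2.57% of the 10093 genes at this level or above had a larger difference.

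**Figure D1:**
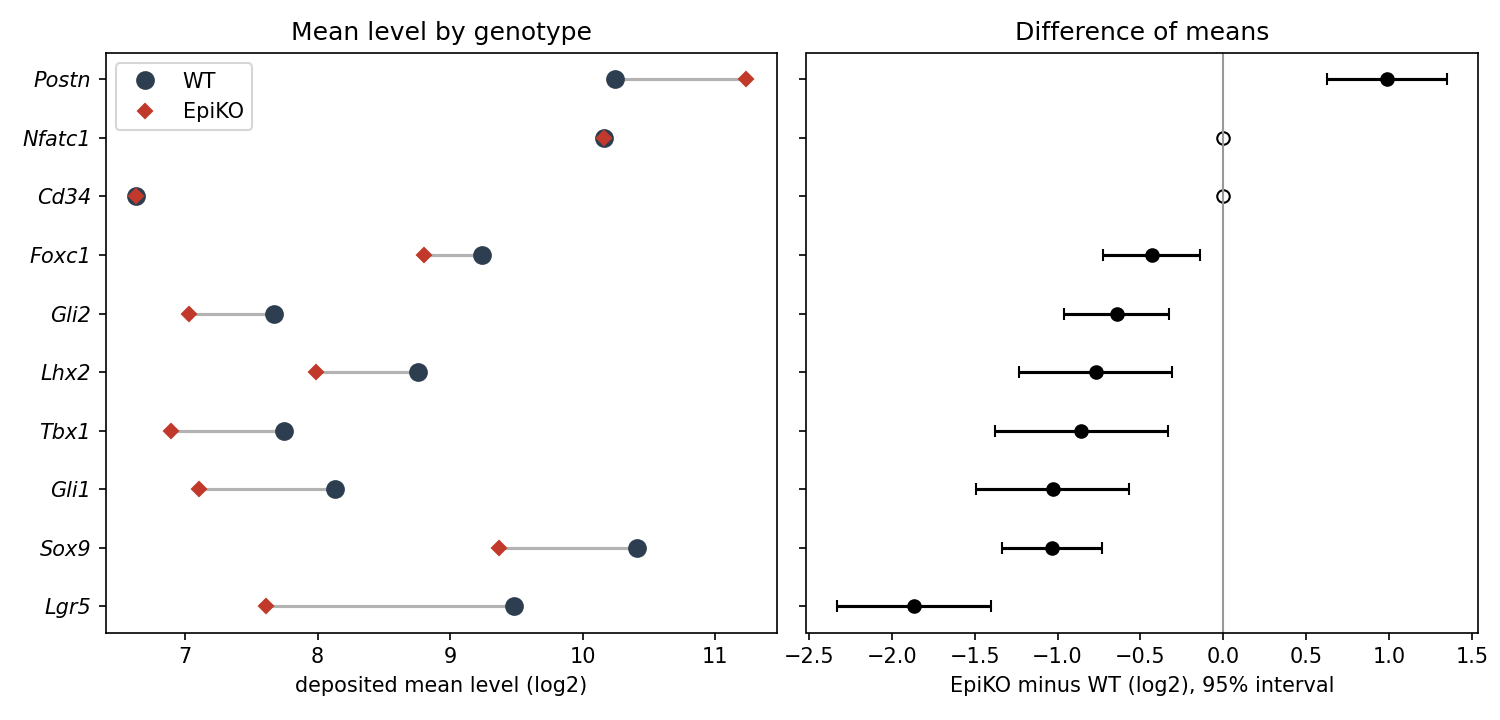
Left, deposited mean level (log2) of each gene in WT (circles) and EpiKO (diamonds). Right, EpiKO minus WT with the recovered 95% interval; open circles are genes given 1 shared mean, and 7 genes lie below 0, from -1.87 for Lgr5 to -0.43 for Foxc1, while Postn lies above it.

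Levels of these genes varied widely from library to library. The SD per library recovered from the fit of the mean, for the 8 genes with unequal means, was 0.51 (log2) for Foxc1, 0.53 for Sox9, 0.56 for Gli2 and 0.64 for Postn. It was 0.81 for Lhx2, 0.82 for Gli1 and Lgr5, and 0.92 for Tbx1. The median over 7820 genes with unequal means at or above the level of Cd34 was 0.16. From 97.8% to 99.6% of those genes varied less than the 8 members did. Recovered from the fitted rhythm of the same table instead, it was 0.84 for Lhx2, 0.95 for Tbx1, 0.83 for Gli1, 0.55 for Gli2 and 1.38 for Cd34. These spreads combine animals, dissection and counting, and how much each contributes was not tested.

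Daily rhythms were assigned to 4 of the 10 genes. Lhx2 and Tbx1 were assigned 1 rhythm shared by both genotypes (16.7% of all genes), Gli2 was rhythmic in WT only (8.41%) and Cd34 in EpiKO only (4.31%). Lgr5, Sox9, Foxc1, Nfatc1 and Postn had no rhythm (56.7%), 0 had different rhythms (2.65%) and Gli1 was left unassigned. The shares in brackets are those of the whole table, and counts over 10 genes are too small to be set apart from them.

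**Figure D2:**
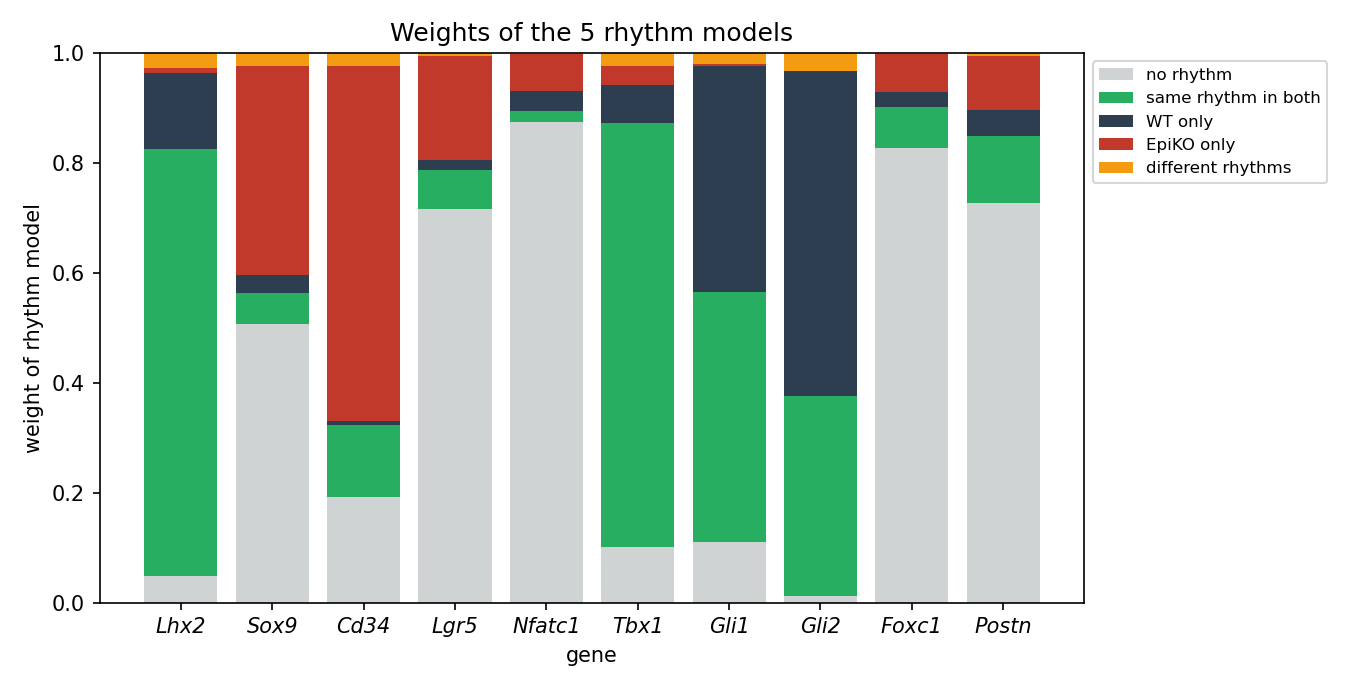
Stacked weights of the 5 rhythm models for each gene, from the authors' deposited table, summing to 1. Same rhythm in both takes 0.776 for Lhx2 and 0.772 for Tbx1, WT only takes 0.591 for Gli2, EpiKO only takes 0.647 for Cd34, and Gli1 is split between same rhythm and WT only.

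Lhx2, Tbx1, Gli1 and Gli2 shared a time of day. Fitted WT peaks lay at ZT20.2 for Lhx2, ZT20.3 for Tbx1 and Gli1, and ZT19.2 for Gli2 in the authors' deposited table, within 1.11 h of each other in the later dark phase. The SE of these peak times was 0.97 to 1.17 h, so the 4 cannot be ordered. Of the 2954 genes assigned the same rhythm across the table, 384 peaked between ZT19 and ZT21, a window chosen after the peaks were seen.

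The curve of Lhx2 rose 2.38-fold from trough to peak (95% interval 1.49 to 3.79). In WT the fitted level ran between 8.13 and 9.38 (log2), and in EpiKO between 7.36 and 8.61. The same-rhythm model gives both genotypes 1 curve shape, so the gap between the curves is only the difference of means. A single curve for both genotypes was better than none (adjusted p = 0.00752, dryR likelihood ratio). Taken alone, WT passed (adjusted p = 0.0373) and EpiKO did not (adjusted p = 0.311), and the difference between the genotypes did not pass (adjusted p = 0.91, dryR likelihood ratios).

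Tbx1 behaved alike, with a 2.51-fold curve (95% interval 1.48 to 4.23) between 7.09 and 8.41 in WT and between 6.23 and 7.55 in EpiKO (log2). Its shared curve passed (adjusted p = 0.0137), while WT alone (adjusted p = 0.11) and EpiKO alone (adjusted p = 0.222) did not (dryR likelihood ratios). The rhythm of Tbx1 therefore rests on both sets of libraries together.

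Gli1 had weights of 0.455 for the same rhythm and 0.411 for WT only in the authors' deposited table. Weights summed to 0.885 for a rhythm in WT and to 0.479 for one in EpiKO. Its shared curve was 2.14-fold (95% interval 1.35 to 3.39; adjusted p = 0.0225), and WT alone also passed (adjusted p = 0.0302, dryR likelihood ratios). In EpiKO alone Gli1 gave an adjusted p of 0.703 (dryR likelihood ratio).

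Gli2 cycled 2.38-fold in WT (95% interval 1.54 to 3.67), between 7.05 and 8.30 (log2). In EpiKO it was fitted flat at 7.03, which is the level of the WT trough. WT alone passed (adjusted p = 0.00397) and EpiKO alone did not (adjusted p = 0.651), but a shared curve passed as well (adjusted p = 0.00466, dryR likelihood ratios). The test of the difference between genotypes gave an adjusted p of 0.659 (dryR likelihood ratio), so a loss of the Gli2 rhythm in EpiKO was not shown.

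Cd34 was the gene with the largest fitted height of the 10, 5.85-fold in EpiKO, with a wide 95% interval of 1.98 to 17.3. It peaked at ZT23.1 in the authors' deposited table, near lights on, with an SE of 1.2 h, and was fitted flat in WT. EpiKO alone passed narrowly (adjusted p = 0.0497), WT did not (adjusted p = 0.771), and the difference between genotypes did not pass (adjusted p = 0.498, dryR likelihood ratios). A rhythm of Cd34 confined to EpiKO was therefore not shown either.

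Sox9 stood at the edge of the limit, with 0.507 for no rhythm and 0.38 for EpiKO only in the authors' deposited table. Its unadjusted p was 0.0277 for a rhythm in EpiKO and 0.0481 for a difference between genotypes, which became 0.134 and 0.316 after adjustment (dryR likelihood ratios). The authors' deposited table gave no rhythm a weight of 0.716 for Lgr5, 0.728 for Postn, 0.827 for Foxc1 and 0.875 for Nfatc1. None of these 4 passed the test of rhythm in WT, in EpiKO or by a shared curve. Counting by adjusted p, 3 of the 10 genes were rhythmic in WT (21.5% of all genes), 1 in EpiKO (12.4%) and 4 by a shared curve (28.4%). For a difference between genotypes the count was 0 of 10 (5.17% of all genes), with 1, Sox9, at an unadjusted p under 0.05 (dryR likelihood ratios).

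**Figure D3:**
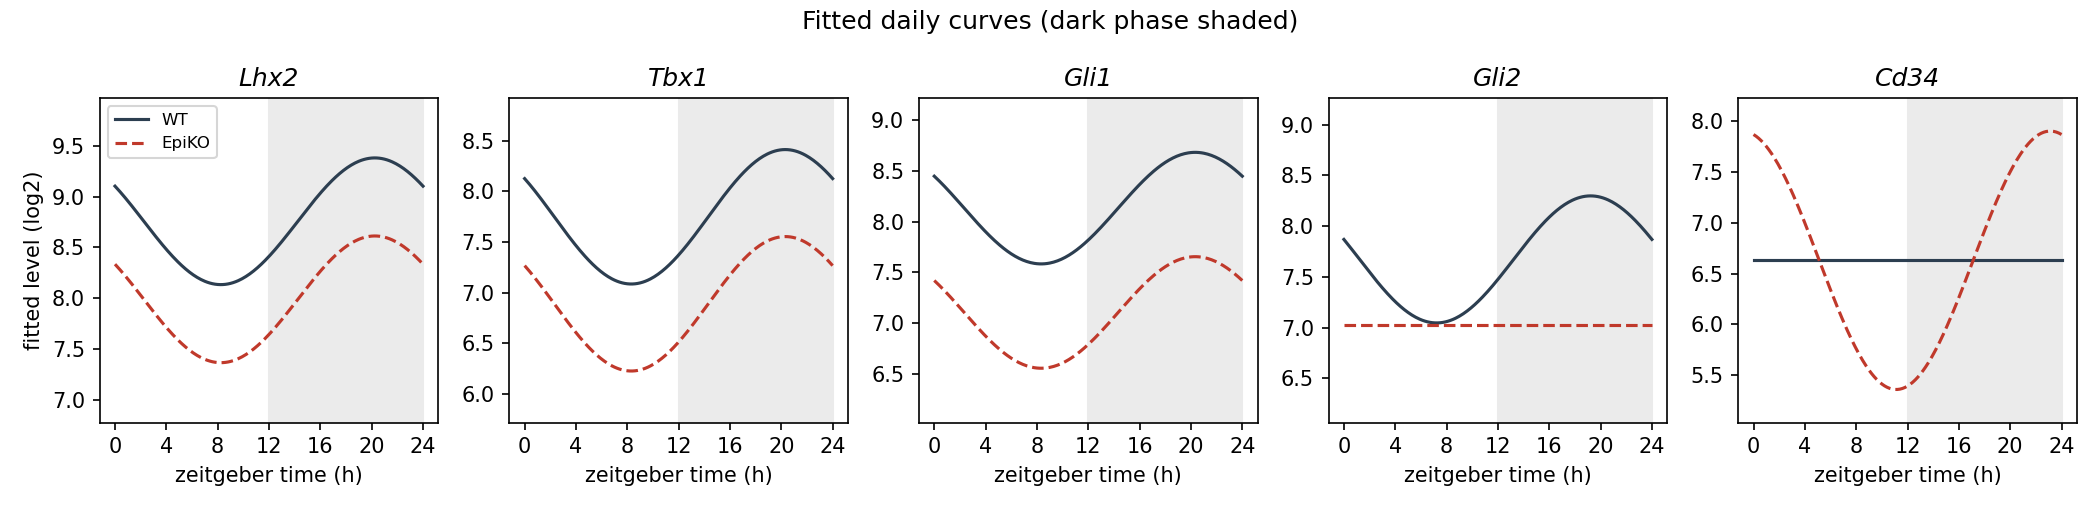
Fitted curves (log2 level against zeitgeber time, dark phase shaded) in WT (solid) and EpiKO (dashed), each panel spanning the same height. Lhx2, Tbx1 and Gli1 have 1 curve shape at 2 levels with peaks near ZT20, Gli2 is flat in EpiKO at its WT trough, and Cd34 swings 5.85-fold in EpiKO around a flat WT line.

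Promoter sequences are shown for the 3 assigned genes with fitted WT peaks near ZT20, Lhx2, Gli2 and Tbx1, of which Gli2 was fitted flat in EpiKO. The runs are the 250 bases before the annotated start, 5′ to 3′ on the gene's strand, from RefSeq on GRCm38.p6 (mm10), with CG pairs in capitals. The positions are chr2:38339031-38339280 (plus strand) for Lhx2, chr1:119053620-119053869 (minus strand) for Gli2 and chr16:18590672-18590921 (minus strand) for Tbx1.
Lhx2: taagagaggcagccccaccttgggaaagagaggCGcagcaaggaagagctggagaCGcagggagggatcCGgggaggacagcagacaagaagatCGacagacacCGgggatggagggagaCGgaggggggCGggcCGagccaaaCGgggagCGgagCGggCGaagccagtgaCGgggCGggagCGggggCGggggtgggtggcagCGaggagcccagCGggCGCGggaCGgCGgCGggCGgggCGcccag
Gli2: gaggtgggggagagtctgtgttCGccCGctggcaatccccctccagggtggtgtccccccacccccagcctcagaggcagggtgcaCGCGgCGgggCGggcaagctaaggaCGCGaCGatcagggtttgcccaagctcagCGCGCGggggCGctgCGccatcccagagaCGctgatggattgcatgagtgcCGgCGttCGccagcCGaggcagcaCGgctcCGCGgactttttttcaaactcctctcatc
Tbx1: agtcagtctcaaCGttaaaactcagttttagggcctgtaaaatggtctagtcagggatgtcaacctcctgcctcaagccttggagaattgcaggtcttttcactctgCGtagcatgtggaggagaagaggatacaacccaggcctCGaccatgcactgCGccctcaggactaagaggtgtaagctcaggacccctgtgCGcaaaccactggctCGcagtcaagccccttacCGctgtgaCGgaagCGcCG
Lhx2 holds 25 CG pairs and is 72.8% G or C, Gli2 holds 22 and is 67.2%, and this window of Tbx1 holds 10 and is 54.4%. A second Tbx1 start has 17 CG pairs and 67.2% in the 250 bases before it. Over 32851 promoter windows of this length the medians were 6 pairs and 52.4%, and 89.3%, 85.2% and 62.2% of windows had fewer pairs than Lhx2, Gli2 and Tbx1. In the 9 windows listed for 6 members (2 each for Lhx2, Tbx1 and Postn, 1 each for Gli2, Cd34 and Foxc1), 4 motifs were searched on both strands. These were the E-box CACGTG bound by BMAL1 and CLOCK (6.02% of all windows), the D-box TTATGTAA or TTACGTAA (0.931%), the ROR element TAGGTCA (2.23%) and the GLI core GACCACCC (0.703%). No motif contains another, and 0 of the 9 windows held any, which says only that these letters are not in these windows.

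The genes with curves nearest to each member, by distance over the 4 fitted coefficients within the class, were as follows. Among 2954 same-rhythm genes, Tbx1 was the third nearest to Lhx2 (0.056, log2) and Lhx2 the second nearest to Tbx1. Lrp3 (2.49-fold, ZT20.2) was near to both, and Hist1h3g to Lhx2, but their mean levels in EpiKO were only 2.14 and -0.63 (log2) in the authors' deposited table. 1110032F04Rik completed the nearest to Tbx1. Pdlim7 (2.31-fold, ZT19.1), Fam171a1 and Adamts2 were nearest to Gli2 among 1490 WT-only genes. Myoc (6.33-fold, ZT23.4), Col8a2 and Pcdh10 were nearest to Cd34 among 764 EpiKO-only genes, at distances of 0.098 to 0.418.

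Around GLI1 and GLI2, the Hedgehog pathway runs from secreted ligands through the receptor PTCH1 and the transducer SMO. Of its 15 other genes, 4 had a higher and 8 a lower mean in EpiKO, by weight and also by adjusted p, with a median difference of -0.17 (log2). Sufu, an inhibitor that holds GLI proteins in the cytoplasm, was higher by 0.96, and the co-receptor Cdon by 0.50 (adjusted p = 8.94e-120 and 2.4e-19, dryR likelihood ratios). The ligand Ihh was lower, with a difference of -1.002 (adjusted p = 0.00771, dryR likelihood ratio), although it was at only 1.01 in EpiKO and 2.01 in WT in the authors' deposited table. Ptch1, a direct target of GLI1, was higher by 0.27 (adjusted p = 0.00333, dryR likelihood ratio), against the direction of Gli1.

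By rhythm, 6 of these 15 genes had none, 3 had the same rhythm, 2 were EpiKO only, 1 had different rhythms and 3 were unassigned. Shh, the ligand made in growing follicles, had a shared curve of 5.85-fold with a peak at ZT22.8, and the inhibitor Hhip one of 3.93-fold at ZT18.1 (adjusted p = 0.000655 and 0.00326 for a shared curve, dryR likelihood ratios). In EpiKO alone neither Shh (adjusted p = 0.211) nor Hhip (adjusted p = 0.0726) passed, and in WT alone Shh did and Hhip did not (dryR likelihood ratios). These peaks lie on either side of those of Gli1 and Gli2, and Shh was at only 3.22 and Hhip at 3.98 (log2) in the authors' deposited table. Gli3, the repressor of the GLI family, was assigned EpiKO only, 1.39-fold with a peak in the light phase at ZT7.07, and Disp1, which releases the ligands, had different rhythms. In the test of a difference between genotypes 0 of the 15 passed by adjusted p (dryR likelihood ratios), with Disp1 nearest at 0.0581.

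Further bulge genes had means in both directions. Of 19 in the table (20 listed), 6 were higher and 9 lower in EpiKO, with a median difference of 0. The Wnt-pathway repressor Tcf7l1, which marks resting bulge cells, was lower, with a difference of -1.596 ± 0.12 (log2, SE; adjusted p = 7.9e-42, dryR likelihood ratio). Its relative Tcf7l2 was lower (-0.93), whereas Fst, an antagonist of activin, was higher by 0.65 and the integrin Itgb1 by 0.45 (each passed by adjusted p). The basal and bulge keratin Krt15 was given 1 mean of 16.7 in the authors' deposited table. Rhythms were assigned to 8 of the 19, of which 3 were the same in both, 3 WT only and 2 EpiKO only. Foxi3, a transcription factor of hair formation, had the largest height, 5.34-fold at ZT21.2 (adjusted p = 1.44e-05 for a shared curve), though not passing in EpiKO alone (adjusted p = 0.0946, dryR likelihood ratios). Npnt, a basement membrane protein laid down by bulge cells, was assigned WT only, 1.58-fold with a peak at ZT18.7, and Krt15 likewise, 1.28-fold at ZT11.1. In the test of a difference, Npnt (adjusted p = 0.084) and Krt15 (adjusted p = 0.469) did not pass (dryR likelihood ratios). Of the 19 genes 1 passed it, Id2, a target of BMP signals that was left unassigned (adjusted p = 0.0377, dryR likelihood ratio).

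Genes that act with LGR5 were spread over both directions, with 2 of 10 higher and 5 lower by weight, 4 lower by adjusted p, and a median of -0.05 (log2). Of the close relatives of Lgr5, Lgr4 was given 1 mean and Lgr6 was higher by 0.41 (adjusted p = 4.07e-07, dryR likelihood ratio). Axin2 and Rnf43, both targets of Wnt signals, had different rhythms. Axin2 peaked at ZT7.55 in WT and ZT0.982 in EpiKO, and Rnf43 at ZT8.00 and ZT1.27, in the authors' deposited table (adjusted p = 0.00495 and 0.000989 for the difference, dryR likelihood ratios). Rspo4 and Rspo1 had fitted peaks at ZT17.7 and ZT18.0 and Rspo3 at ZT2.99, all assigned the same rhythm in the authors' deposited table. Rspo4 was at only 0.96 in both genotypes and Rspo1 at 2.49 in EpiKO (log2). Taken alone, Rspo4 and Rspo1 passed neither in WT (adjusted p = 0.0502 and 0.204) nor in EpiKO (adjusted p = 0.0744 and 0.0641), while Rspo3 passed in both (dryR likelihood ratios). By mean, Axin2 (-0.50) and Rspo1 (-0.91) were lower in EpiKO (log2, each passed by adjusted p). Lgr5 itself had no rhythm.

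For NFATC1, 4 of 10 NFAT and calcineurin genes were higher and 5 lower, with a median of -0.04 (log2). Rcan2, an inhibitor of calcineurin, and Nfatc4 were lower, with differences of -5.92 and -2.36, while the calcineurin subunits Ppp3ca and Ppp3cb were higher by 0.81 and 0.35 (each passed by adjusted p). Rcan2 was at only -0.68 in EpiKO against 5.25 in WT (log2), so the size of its difference rests on a very low level. Among 12 BMP genes, 5 were higher and 4 lower, with Grem1, a BMP antagonist, higher by 1.59 and the receptor Bmpr2 by 1.17, and Bmp6 (-0.73) and the target Id1 (-0.63) lower (each passed by adjusted p). Bmp4 was assigned the same rhythm, 1.36-fold with a peak at ZT9.99 (adjusted p = 0.000382 for a shared curve), and passed in WT alone (adjusted p = 0.00107) but not in EpiKO alone (adjusted p = 0.313, dryR likelihood ratios). Id2, also one of these genes, is the 1 of 12 that passed the test of a difference. Id3 was assigned WT only, 2.01-fold at ZT10.5, and missed the test in WT (adjusted p = 0.055, dryR likelihood ratio).

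Upper follicle genes divided evenly, with 2 of 8 higher (Defb6 0.49, Lgr6 0.41) and 2 lower (Krt17 -0.65, Cst6 -0.64), and 0 of 8 were assigned a rhythm. Among 14 hair germ and growing hair genes, 2 were higher and 5 lower by weight, and 1 and 3 by adjusted p. Krt25, a keratin of the inner root sheath, was lower, with a difference of -6.14 ± 0.56 (log2, SE; adjusted p = 3.45e-27, dryR likelihood ratio), and its spread per library was 1.94. Krt71 and Krt27, from the same sheath, were each given 1 mean. Hoxc13, a regulator of hair keratins, was lower, with a difference of -0.66 (adjusted p = 0.000498), and was assigned the same rhythm, 2.13-fold at ZT19.8 (adjusted p = 0.00105 for a shared curve, dryR likelihood ratios). Taken alone, Hoxc13 passed in WT (adjusted p = 0.00543) and not in EpiKO (adjusted p = 0.312, dryR likelihood ratios). Krt73, Krt25 and Krt31 were assigned EpiKO only, with peaks from ZT14.5 to ZT15.5 in the authors' deposited table. Krt25 (adjusted p = 0.0401) and Krt31 (adjusted p = 0.00038) passed in EpiKO and Krt73 (adjusted p = 0.0528) did not (dryR likelihood ratios). In the test of a difference between genotypes, Krt25 (adjusted p = 0.491), Krt31 (adjusted p = 0.136) and Krt73 (adjusted p = 0.7) did not pass (dryR likelihood ratios). A rhythm confined to EpiKO was therefore not shown, and their means in EpiKO were low, at 4.25, 3.15 and 3.57 (log2).

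**Figure D4:**
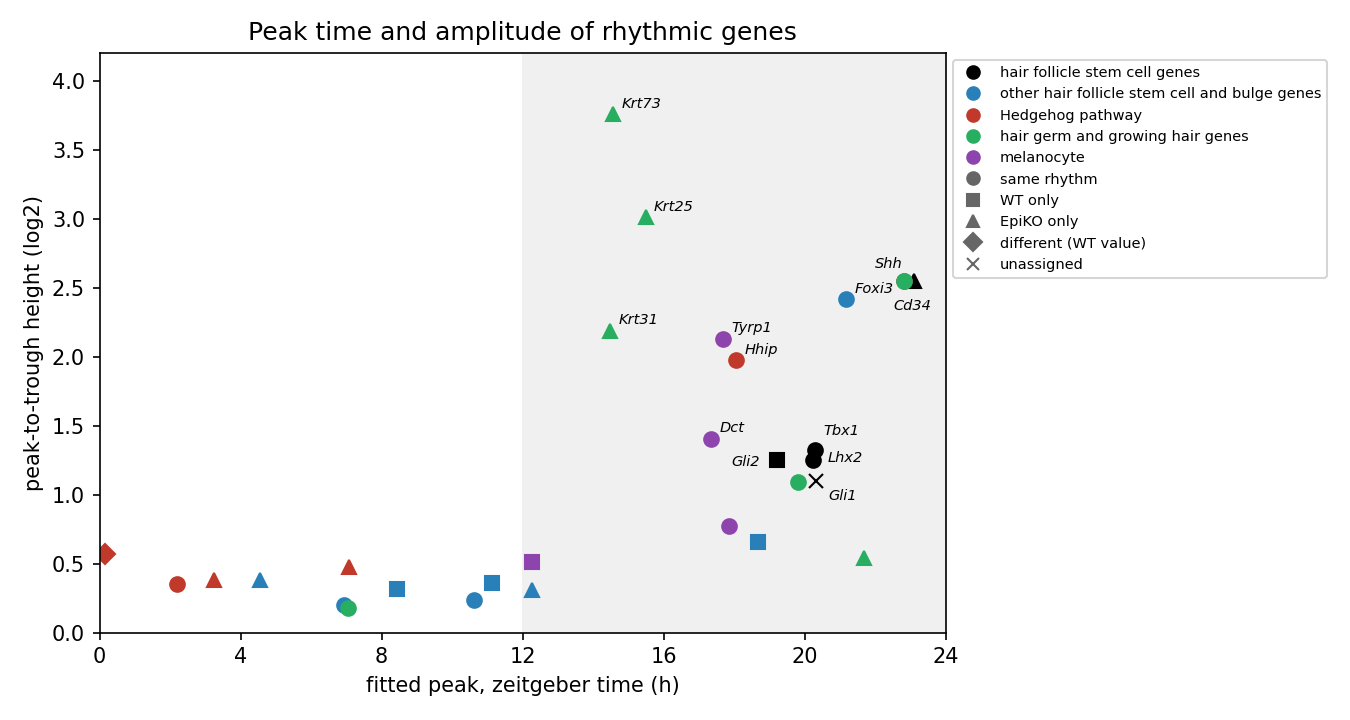
Fitted peak time (h) against peak-to-trough height (log2) of the genes assigned a rhythm in 5 groups, plus Gli1; colour gives the group (Shh, in 2 groups, has 1 colour) and shape the class. Lhx2, Tbx1, Gli1 and Gli2 lie together near ZT20, with Hoxc13 (unlabelled green circle) beside them, Foxi3, Shh and Cd34 later, and Hhip and pigment cell genes earlier.

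Markers of other cells were read beside these results. The label of epidermal cells was met by its defining genes, with Krt14 at 16.5 and Krt5 at 17.7 (log2, EpiKO) in the authors' deposited table. Of 7 basal keratinocyte genes 1 was higher and 3 lower by weight, and their summed level was 19.1 in both genotypes (log2). Of 5 suprabasal genes in the table (6 listed) 1 was higher and 3 lower, with a summed level of 18.1 in EpiKO and 18.5 in WT. The suprabasal genes Ivl (1.9-fold, ZT20.4) and Krt1 (1.31-fold, ZT21.4) were assigned the same rhythm, near in time to Lhx2, Tbx1 and Gli1. A shared curve passed for both (adjusted p = 0.000417 and 0.0242, dryR likelihood ratios). Krt1 passed neither in WT alone (adjusted p = 0.417) nor in EpiKO alone (adjusted p = 0.11, dryR likelihood ratios). The other 3, Krt10, Lor and Sbsn, had no rhythm. Of 6 fibroblast genes 3 were higher in EpiKO and 0 lower (Dcn 0.97, Col1a2 0.74, Lum 1.29), their summed level being 9.79 in EpiKO and 9.48 in WT (log2). Fibroblasts also make Postn, and the part of these cells in its higher level was not tested. Col1a1, Col3a1 and Pdgfra were each given 1 mean. Blood and immune genes were higher in 4 of 5 cases, Cd207 of Langerhans cells by 1.49, and their summed level was 10.9 in EpiKO and 9.97 in WT.

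Cd34 is also made by blood vessel cells. The 6 endothelial genes were low, from -1.25 to 3.42 in EpiKO and from -1.77 to 2.91 in WT (log2), with Cldn5 and Emcn below 0 in both genotypes, and 0 of 6 passed the test of rhythm in EpiKO by adjusted p. Of these genes 3 were higher in EpiKO (Pecam1, Cdh5 and Kdr). The part of vessel cells, or of any other cells, in the level and the fitted rhythm of Cd34 was not tested. Of 4 melanocyte genes 3, Tyrp1, Dct and Pmel, were assigned the same rhythm, with peaks at ZT17.3 to ZT17.9 in the authors' deposited table. These peaks lay earlier than those of Lhx2, Tbx1 and Gli1. Mitf was assigned WT only, with a peak at ZT12.3, and its difference between genotypes did not pass (adjusted p = 0.318, dryR likelihood ratio). Of 6 dermal papilla genes, the cells at the base of the follicle, 2 had the same rhythm, 1 was WT only and 1 EpiKO only. By mean 1 was higher and 2 lower by weight, 0 and 1 by adjusted p, and the genes summed to 8.29 (log2) for EpiKO against 8.67 for WT. The 1 that passed was Alx4, with a difference of -2.84 (adjusted p = 1.54e-43, dryR likelihood ratio), and the part of these cells in the lower means of the 7 members was not tested. Crabp1 peaked at ZT20.0 in WT, the time of Lhx2, Tbx1 and Gli1, and the part of suprabasal, dermal papilla and pigment cells in the rhythms near ZT20 was not tested. Of 4 smooth muscle and pericyte genes, Acta2 (-2.12) and Myh11 (-4.34) were lower and Rgs5 (3.65) higher in EpiKO. Myh11 was at only 0.76 in EpiKO and Rgs5 at -1.41 in WT (log2), so the sizes of their differences rest on very low levels. Of 4 Merkel cell genes 1 was higher and 1 lower, and 0 had a rhythm.

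**Figure D5:**
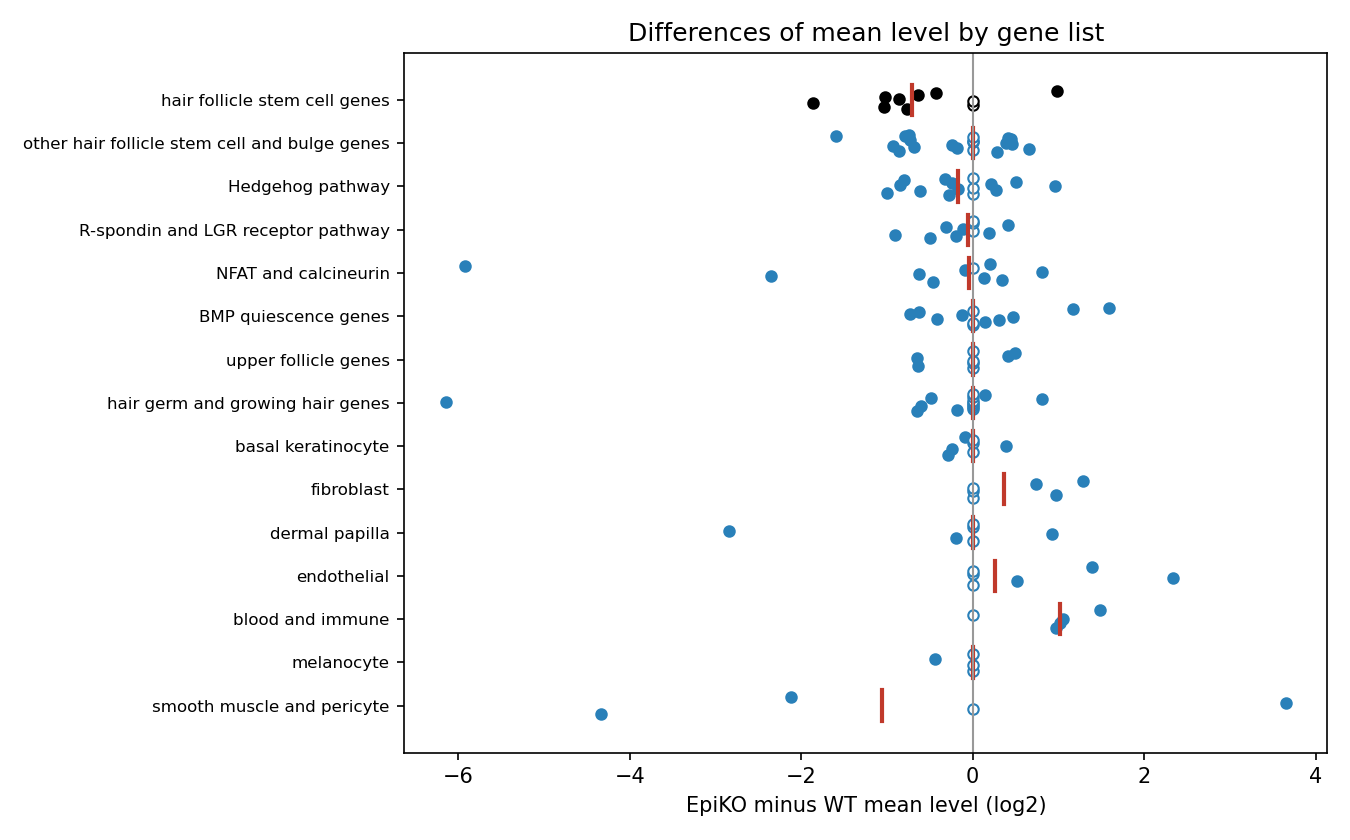
EpiKO minus WT mean level (log2) of each gene in 15 groups, 1 point per gene (suprabasal and Merkel cell genes are not drawn); open points were given 1 shared mean, and red bars are medians. The hair follicle stem cell genes have a median of -0.71, and the other follicle lists lie between -0.17 and 0.

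The genes lie on different chromosomes for the most part. On mm10 (GENCODE M21) Lhx2 is at chr2:38339281-38369733, Sox9 at chr11:112782224-112787760, Tbx1 at chr16:18580979-18590671 and Foxc1 at chr13:31806633-31812476. Lgr5 (chr10:115450311-115587780) and Gli1 (chr10:127329882-127341974) share a chromosome but lie far apart, as do Cd34 (chr1:194938819-194961279) and Gli2 (chr1:118834132-119053619). Nfatc1 is at chr18:80606205-80713071 and Postn at chr3:54361109-54391037. Reads that fit another gene are few, since at most 4.47% of the 51-base windows of a member (Gli1) occur in transcripts of another gene. Exons of Gli1 overlap those of Arhgap9 and Gm47200 on the opposite strand, and those of Cd34 overlap Gm16897. Whether the counting used strand is not stated, so reads of Gli1 and Cd34 cannot be told apart from those of these partners.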

How the data were processed

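Libraries were made with a strand-marking kit for polyadenylated RNA from epidermal cells freed by dispase and filtered, and read as single 51-base reads, per the labels' protocols. The submitters' processing notes name mm10, edgeR, featureCounts 1.6.0, SAMtools 1.3.1, HISAT2 2.2.1 and Trimmomatic 0.36, with no settings. The comparison with WT used dryR, per the series design text. The means deposited by the authors are in log2, with a scaling that no source used here gives, and the deposited model weights are a score from 0 to 1. Depth is unknown, and replicates could not be compared.

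The likelihood ratio of nested models was recovered as 2 times the log ratio of their weights plus the penalty of the Bayesian information criterion for 48 libraries. This number rests on the table. The weight of no rhythm was at most 48.05 times that of EpiKO only and 48.38 times that of WT only. Both lie just above the limit of 48 under that penalty. The ratios of both genotypes added up to that of different rhythms within 1.63e-05 in 17720 genes. Ratios below 0 (156 genes for the mean, 54 for the difference) were set to 0, as were those for rhythm, which were not counted. P-values came from the chi-square distribution with 2 degrees of freedom for rhythm and 1 for the mean, were Benjamini-Hochberg adjusted over 17721 genes, and passed below 0.05. The SE is the estimate divided by the root of its ratio, and intervals are 95%. These large-sample values take the authors' fitted spread as known. The recovery was also run on simulated data weighed with the same penalty for 48 libraries. Agreement of the ratios there was fixed in advance, so it is no check of that number or penalty in the authors' fit. The recovery was chosen after seeing the data.

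Named genes are the members, Arntl and, per list, up to 4 rhythmic genes by amplitude and 2 per direction by mean difference, with the 3 nearest curves per assigned member; not every gene the rule takes is named, and 1 is not reported here. Ptch1, Lgr4, Id2, Krt27, Krt71 and single marker genes were named after their values were seen. The members and lists were chosen with earlier results of these data known. Symbols matched 17720 of 17721 identifiers. Alternatives were no weight limit or one of 0.4 or 0.8, amplitudes of at least 0.25, mean differences of at least 0.5, centring, and leaving out genes under the 0.25 quantile of level. Scripts ran on Python 3.11.15 with NumPy 2.4.6, pandas 2.3.3, SciPy 1.17.1 and matplotlib 3.10.9.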

Additional observations from a re-analysis of the deposited data

How the results depend on the processing

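With a minimum weight of 0.8, members in the same-rhythm, WT-only and EpiKO-only classes went from 2, 1 and 1 to 0, 0 and 0, and those with no rhythm from 5 to 2. Counted by recovered likelihood ratios, a setting chosen after seeing the data, 4 members had the same rhythm and 0 were WT only, Gli1 and Gli2 counting as a shared curve. With no minimum weight, a limit of 0.4, a minimum amplitude of 0.25 or without low genes, the counts stayed within 1.5 times, Gli1 joining the same-rhythm class (3 members) where the limit was lower or absent. The counts of 7 lower and 1 higher means were the same under the weight limits tried, under both centrings (the second, on the median of -0.14 of genes with unequal means, added after seeing the data) and by adjusted p; with a minimum difference of 0.5, Foxc1 dropped out and 6 were lower. No paired analysis was possible because the table holds no values per library, and for the same reason no replicate could be left out. Depth is unknown, so what it limits cannot be given.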
